A study of Homo sapiens with 18 samples.

Results

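The 7 genes INSIG1, INSIG2, SCAP, SREBF1, SREBF2, MBTPS1 and MBTPS2 encode the apparatus that senses sterols and releases the SREBP transcription factors. They were taken by gene symbol from a table of 26249 genes measured in 18 libraries. All 7 passed a filter of a mean of at least 1 FPKM (read abundance per length of transcript, scaled between libraries), which 11477 genes passed. The libraries came from PATU-8988T and PATU-8902, established cell lines of human pancreatic ductal adenocarcinoma (PDAC), cultured in DMEM with serum and antibiotics. In each line, 3 libraries were made from cells given the vehicle DMSO for 24 h, 3 from cells given 2.5 µM of the DCLK1 kinase inhibitor DCLK1-IN-1 for 6 h, and 3 from cells given that dose for 24 h. The 6 h inhibitor groups had only the 24 h DMSO group as a reference, so drug and time cannot be told apart at 6 h, nor between 24 h and 6 h. The 6 h and 24 h comparisons of a line share the same 3 DMSO libraries. The series describes biological triplicates and 2 lines, so p-values measure the spread between the triplicates and not between tumours.

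SREBP precursors sit in the membrane of the endoplasmic reticulum bound to SCAP, which both senses cholesterol and escorts them. When sterols are plentiful, INSIG proteins hold SCAP in place. When sterols fall, SCAP carries the precursor in COPII vesicles to the Golgi, where the site-1 protease (MBTPS1) and then the site-2 protease (MBTPS2) cut the transcription factor free to enter the nucleus. SREBP-2, from SREBF2, mainly drives cholesterol synthesis and uptake, and SREBP-1, from SREBF1, mainly fatty acid synthesis. INSIG1 and SREBF2 are themselves known targets of nuclear SREBP, which makes them a feedback brake and a feed-forward step. INSIG2, SCAP and the proteases are known more as standing parts of the apparatus. All values here are transcript levels, and neither the processing of SREBP proteins nor sterol content was measured.

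Promoter sequence is shown for the paired genes INSIG1 and INSIG2 and SREBF2 and SREBF1, because within each pair the levels described below behaved differently. The 250 bases before the annotated start were taken from RefSeq (GRCh38.p14), in which all 7 genes were found. Each is written 5′ to 3′ on the strand of its gene. Capitals mark the letters CACCCCA (the core of the classical sterol regulatory element), CCAAT (the NF-Y box), GGGCGG (the SP1 box) and CACGTG (an E-box) on either strand, so that a box on the other strand reads ATTGG or CCGCCC. The windows are chr7:155297628-155297877 for INSIG1, chr2:118088221-118088470 for the first of 2 windows of INSIG2, chr22:41832855-41833104 for SREBF2 (all on the forward strand) and chr17:17836987-17837236 for SREBF1 (reverse strand).
INSIG1: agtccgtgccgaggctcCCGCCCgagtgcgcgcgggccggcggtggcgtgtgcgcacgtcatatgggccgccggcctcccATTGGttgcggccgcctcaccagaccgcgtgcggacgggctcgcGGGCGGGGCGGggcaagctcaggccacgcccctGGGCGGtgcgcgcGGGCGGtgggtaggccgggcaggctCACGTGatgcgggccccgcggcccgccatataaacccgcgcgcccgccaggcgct
INSIG2: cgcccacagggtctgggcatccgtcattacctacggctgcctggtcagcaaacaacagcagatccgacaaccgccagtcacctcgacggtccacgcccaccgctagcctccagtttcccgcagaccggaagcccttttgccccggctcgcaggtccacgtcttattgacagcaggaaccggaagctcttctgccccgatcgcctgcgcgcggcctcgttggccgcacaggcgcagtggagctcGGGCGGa
SREBF2: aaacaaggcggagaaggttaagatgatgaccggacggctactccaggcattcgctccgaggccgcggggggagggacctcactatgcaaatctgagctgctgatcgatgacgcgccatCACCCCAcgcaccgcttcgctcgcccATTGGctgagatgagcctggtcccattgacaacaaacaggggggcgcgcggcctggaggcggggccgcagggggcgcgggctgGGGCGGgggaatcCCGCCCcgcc
SREBF1: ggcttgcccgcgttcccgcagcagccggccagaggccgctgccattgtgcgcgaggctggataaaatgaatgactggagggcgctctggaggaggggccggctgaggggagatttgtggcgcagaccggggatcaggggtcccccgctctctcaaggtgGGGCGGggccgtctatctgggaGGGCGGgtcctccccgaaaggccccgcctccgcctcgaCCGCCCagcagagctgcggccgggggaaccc
SREBF2 held the sterol regulatory element core 132 to 126 bases before the start and an inverted CCAAT 106 to 102 bases before it. The core was in 2459 of 35116 promoter windows of this length (7%). The other 6 members did not hold it in these windows, but SREBPs also bind other letters, which were not searched. Sequence beyond these windows, or before other starts of a gene, was not searched either. INSIG1 held an inverted CCAAT 170 to 166 bases before its start, 5 GGGCGG boxes, of which 2 overlap by a base, and a CACGTG 55 to 50 bases before it. CCAAT was in 32% of all windows, GGGCGG in 42.6% and CACGTG in 6.34%. INSIG2 held 1 GGGCGG in each window and SREBF1 held 3. SCAP held 3 GGGCGG and a CACGTG, and MBTPS1 and MBTPS2 held none of the 4 motifs. A match is a description of letters and not of a bound site.

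The level of whole libraries matters to each value below. The authors' table was level on its spike-in controls, RNA added in fixed amount, while the median FPKM of the tested genes ran from 6.12 to 17.4 across libraries. The widest gap within the PATU-8988T DMSO group was 1.97-fold, with replicate 1 at the bottom and replicate 2 at the top. The deviation of each gene from its group mean followed that of the library median across the 18 libraries, with Pearson's r from 0.79 for INSIG2 to 0.99 for MBTPS1. The median of all genes differed by -0.35 on the log2 scale between 24 h of inhibitor and DMSO in PATU-8988T, by -0.32 between 24 h and 6 h in that line, and by 0.45 between the lines in DMSO. Values are therefore given as deposited and after each library was shifted to a common median ("median-centred"), which takes out the level of the library and with it any true change in RNA per cell. The epithelial markers KRT8, KRT18, EPCAM and SOX9 were present in both lines, while KRT7, KRT19 and CDH1 were at most 0.228 FPKM in PATU-8988T, which goes against a fully ductal identity. Of 12 markers of immune, endothelial, fibroblast, acinar and islet cells, 11 were at most 0.824 FPKM, and CD68 was at 3.55 to 17.3 FPKM.

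**Figure D1:**
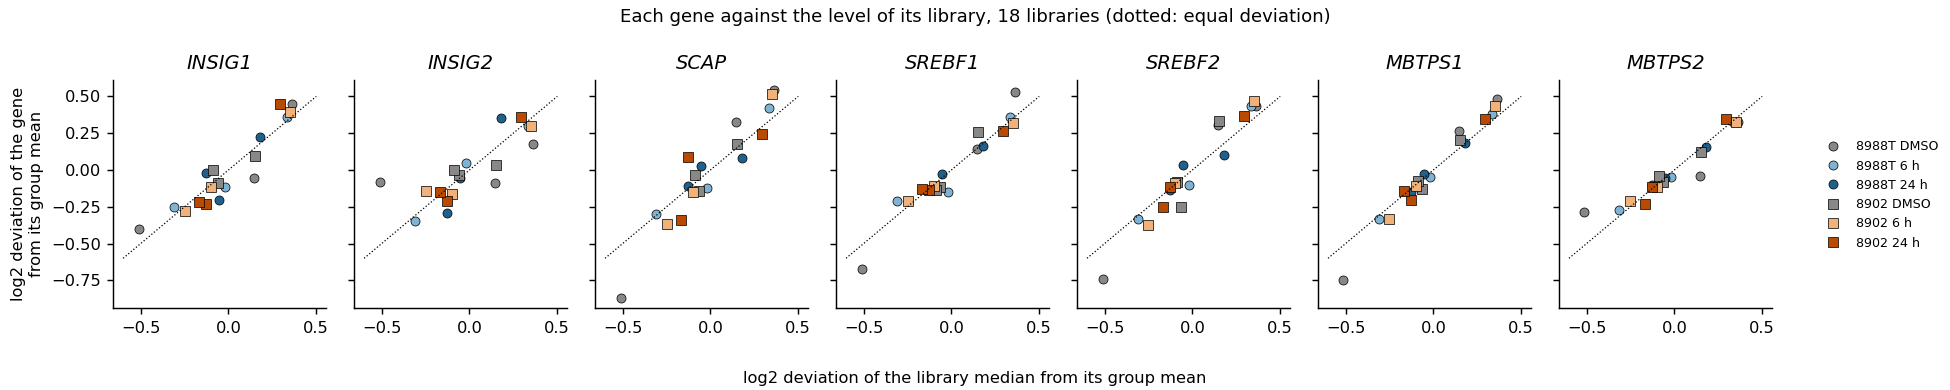
Log2 deviation of each gene from its group mean (vertical axis, as deposited) against that of the library median (horizontal axis), for 18 libraries, 1 panel per gene. Points rise with the dotted line of equal deviation but do not all lie on it. PATU-8988T DMSO replicate 1 is the lowest library in each panel but that of INSIG2. It lies below the line for SCAP, SREBF1, SREBF2 and MBTPS1 and above it for INSIG1, INSIG2 and MBTPS2.

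INSIG1 was the member that moved most. In PATU-8902 it was higher at both times of inhibitor on both scales, by 3.31-fold at 6 h and 2.74-fold at 24 h median-centred. In PATU-8988T it was higher at 6 h by 1.85-fold as deposited and 1.87-fold median-centred, and passed the test on the median-centred scale alone. INSIG2, which encodes the other sterol-bound anchor of SCAP, did not pass the test in any comparison with DMSO.

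In PATU-8902, INSIG1 stood at 11.7, 10.2 and 10.9 FPKM in DMSO, at 30.5, 49.3 and 34.2 FPKM after 6 h of inhibitor and at 28.1, 28.3 and 45.6 FPKM after 24 h. Each of the 6 treated libraries was above each DMSO library. The change at 6 h was 1.68 ± 0.26 (log2 of FPKM + 1, SE) as deposited, with a limma adjusted p of 0.0416, and 1.73 ± 0.09 median-centred, with an adjusted p of 4.08e-08. INSIG1 had the smallest p of all 11477 genes in this comparison on both scales. It was the only one of the 7 members called, while 0.00871% of all genes were called as deposited and 0.113% median-centred. At 24 h the change was 1.52 ± 0.26 (limma adjusted p = 0.0178) as deposited and 1.46 ± 0.09 (limma adjusted p = 1.04e-07) median-centred. As deposited, 1 of 7 members and 0.113% of all genes were called at 24 h, and median-centred 2 of 7 members and 0.444%.

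A fit on the compared groups alone, as deposited, ended the calls at 6 h (limma adjusted p = 0.552) and at 24 h (0.0869), with the same log2 changes. Adding the replicate number as a block, as deposited, ended the call at 6 h and kept that at 24 h. The as-deposited calls were also sensitive to single libraries. Leaving out any 1 of the 6 libraries compared ended the 6 h call, with log2 changes from 1.48 to 1.82 and adjusted p from 0.0533 to 0.235. At 24 h, 2 of 6 such fits kept the call, those without replicate 1 or replicate 2 of the 24 h inhibitor group, with adjusted p from 0.0328 to 0.203 over the 6. Median-centred, INSIG1 was called in 6 of 6 such fits at both times.

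At the common median, INSIG1 in PATU-8902 stood at 8.25, 8.44 and 9.22 in DMSO, at 30.2, 31.9 and 30.5 after 6 h and at 23.6, 24.4 and 28.4 after 24 h, in FPKM. The 3 libraries at 24 h all lay below the 3 at 6 h and above the 3 in DMSO. The 24 h level was lower than the 6 h level by -0.27 ± 0.09 on the log2 scale, which did not pass the test (limma adjusted p = 0.531).

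In PATU-8988T, INSIG1 stood at 5.31, 10.4 and 7.02 FPKM in DMSO, at 11.9, 13.2 and 18.8 FPKM after 6 h and at 8.24, 7.13 and 9.93 FPKM after 24 h. The libraries at 6 h did not overlap with those in DMSO, and those at 24 h did. The 6 h change was 0.88 ± 0.26 as deposited, which did not pass (limma adjusted p = 0.9996), and 0.90 ± 0.09 median-centred, which did (limma adjusted p = 3.14e-04). Median-centred, INSIG1 was the only member of 7 called, against 0.0784% of all genes, and as deposited no member and 0% of all genes were called. Without DMSO replicate 1, the library that stood lowest, the 6 h change was 0.69 as deposited (limma adjusted p = 0.127) and 0.96 median-centred.

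At 24 h in PATU-8988T the INSIG1 change was 0.17 ± 0.26 (limma adjusted p = 0.620) as deposited and 0.52 ± 0.09 (limma adjusted p = 0.229) median-centred. At the common median the 3 libraries at 24 h, at 13.7, 11.3 and 13.1 FPKM, lay between those at 6 h, at 17.5, 15.6 and 17.1, and those in DMSO, at 9.28, 9.10 and 7.28. Neither scale called a member or any of the genes tested (0%) in this comparison, where 687 genes as deposited and 1923 median-centred had an unadjusted p below 0.05. Of the members, 0 as deposited and 4 median-centred did. By deposited mean, the order of the groups for INSIG1 was PATU-8902 at 6 h (38.0 ± 9.95 FPKM, SD, n = 3) and 24 h (34.0 ± 10.1), PATU-8988T at 6 h (14.6 ± 3.63), PATU-8902 DMSO (10.9 ± 0.754), PATU-8988T at 24 h (8.43 ± 1.41) and its DMSO group (7.57 ± 2.57). The first pair and the last pair of neighbours overlapped, and the other neighbours did not.

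INSIG2 stood in PATU-8902 at 31.3, 29.8 and 30.6 FPKM in DMSO, at 29.003, 39.8 and 28.6 FPKM after 6 h and at 30.1, 31.3 and 45.1 FPKM after 24 h. The groups overlapped. The change was 0.07 at 6 h and 0.19 at 24 h as deposited, and median-centred its 95% interval was -0.18 to 0.40 at 6 h and -0.17 to 0.41 at 24 h. In PATU-8988T, INSIG2 stood at 4.42, 5.49 and 4.401 FPKM in DMSO, at 5.47, 7.49 and 9.12 FPKM after 6 h and at 3.66, 4.50 and 6.31 FPKM after 24 h. The groups overlapped as deposited. Median-centred, the 3 libraries at 6 h lay above those in DMSO, with a change of 0.53 ± 0.14 that did not pass the test (limma adjusted p = 0.0836). DMSO replicate 1 stood apart there, at 7.84 FPKM at the common median against 4.76 and 4.57 in replicates 2 and 3, and without it the 6 h change was 0.75 (limma adjusted p = 2.12e-04).

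**Figure D2:**
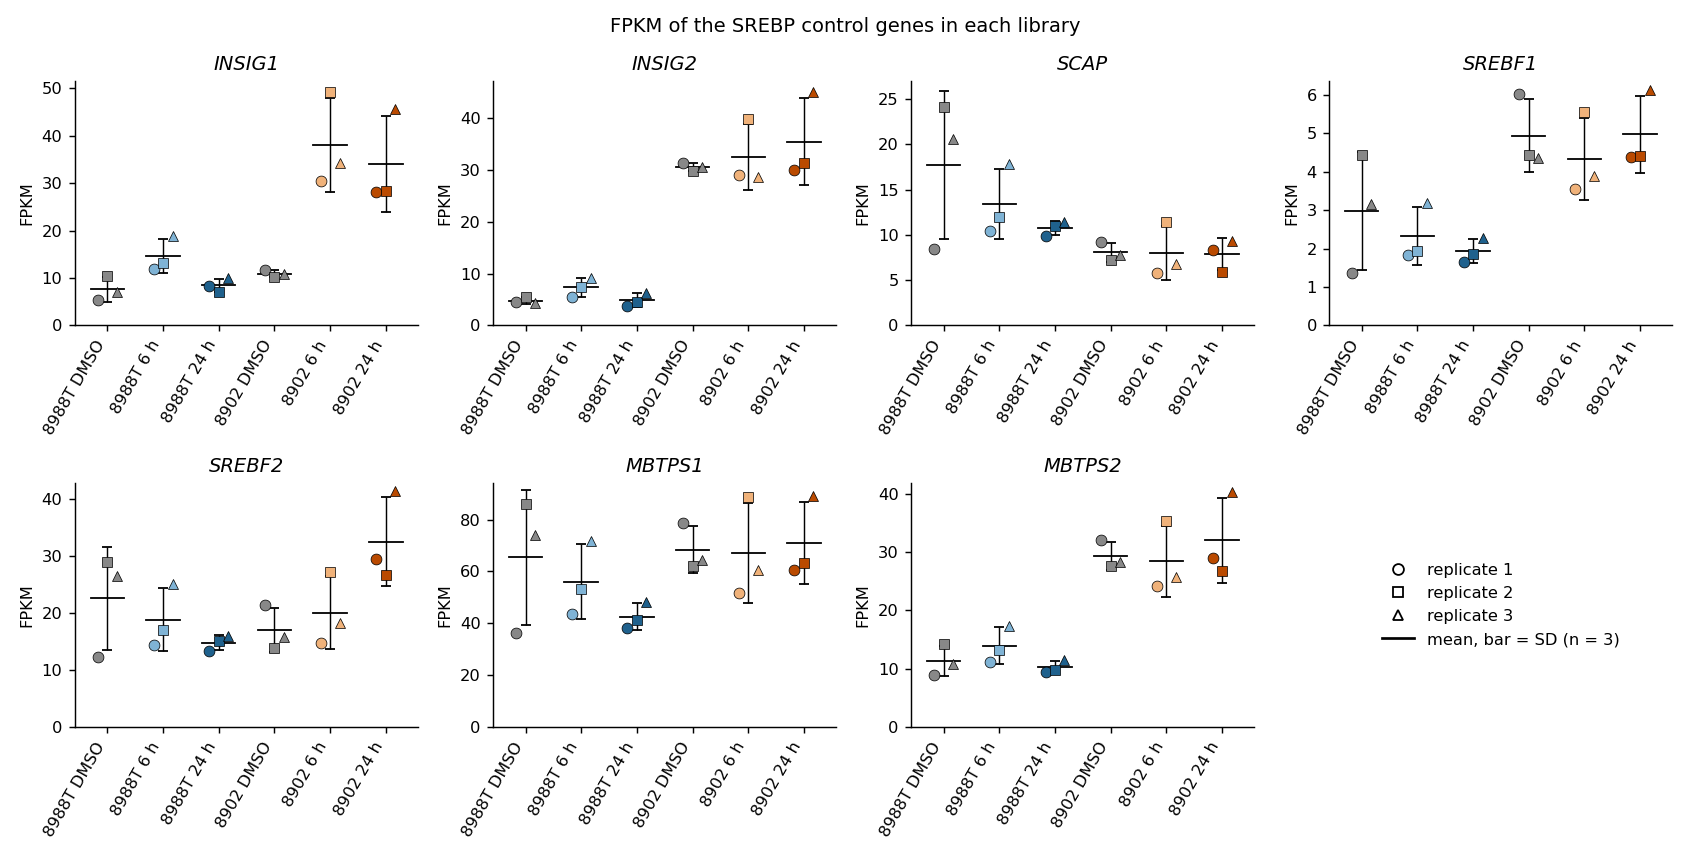
FPKM as deposited (vertical axis, linear from 0) of the 7 genes in each library, by line and group (horizontal axis). Points are libraries, lines are means and bars are SD (n = 3). INSIG1 in the treated PATU-8902 libraries, at 28.1 to 49.3 FPKM, lies above the DMSO libraries at 10.2 to 11.7.

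SCAP, the escort, was not called in any comparison with DMSO. In PATU-8902 it stood at 9.22, 7.20 and 7.82 FPKM in DMSO, at 5.74, 11.4 and 6.81 FPKM after 6 h and at 8.28, 5.90 and 9.33 FPKM after 24 h, with the groups overlapping. Its median-centred change had a 95% interval of -0.29 to 0.26 at 6 h and -0.39 to 0.16 at 24 h. In PATU-8988T it stood at 8.42, 24.1 and 20.6 FPKM in DMSO, at 10.4, 11.9 and 17.8 FPKM after 6 h and at 9.84, 10.95 and 11.4 FPKM after 24 h. The spread of the DMSO group covered both treated groups. The change was -0.29 ± 0.31 at 6 h and -0.56 ± 0.31 at 24 h as deposited, and -0.28 ± 0.13 and -0.21 ± 0.13 median-centred. Without DMSO replicate 1 the 24 h value was -0.99 as deposited, which passed the test, in a fit that called 56.5% of all genes.

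SREBF2, the gene of SREBP-2, was higher at 24 h of inhibitor in PATU-8902, by 1.77-fold (of FPKM + 1) on the median-centred scale, and SREBF1 was not. In PATU-8902, SREBF2 stood at 21.4, 14.0 and 15.8 FPKM in DMSO, at 14.8, 27.3 and 18.2 FPKM after 6 h and at 29.4, 26.7 and 41.4 FPKM after 24 h. The 24 h libraries lay above each DMSO library, and the 6 h libraries overlapped with both groups. The 24 h change was 0.89 ± 0.31 as deposited, which did not pass (limma adjusted p = 0.9999), and 0.83 ± 0.11 median-centred, which did (limma adjusted p = 3.89e-04) and kept its call whichever of the 6 libraries was left out.

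At the common median the SREBF2 libraries of PATU-8902 stood at 15.3, 11.6 and 13.4 FPKM in DMSO, at 14.6, 17.5 and 16.2 FPKM after 6 h and at 24.7, 23.1 and 25.8 FPKM after 24 h. The 6 h change was 0.25 ± 0.11 and did not pass the test. The level at 24 h was higher than at 6 h by 0.58 ± 0.11 (limma adjusted p = 0.0277), where SREBF2 was the only member called of 7 and 0.244% of all genes were called. As deposited that value was 0.69, and neither a member nor any other gene was called (0%; 197 genes had an unadjusted p below 0.05). The median-centred call between 24 h and 6 h was kept in 1 of 6 leave-one-out fits, the one without replicate 2 of the 6 h group, with adjusted p from 0.0382 to 0.209. INSIG1 thus stood at its highest group mean at 6 h and SREBF2 at 24 h, a difference in timing between the genes that was not itself tested.

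In PATU-8988T, SREBF2 stood at 12.3, 29.1 and 26.5 FPKM in DMSO, at 14.4, 17.1 and 25.2 FPKM after 6 h and at 13.4, 15.2 and 15.9 FPKM after 24 h. The DMSO group spanned both treated groups. The changes were -0.20 and -0.49 as deposited and -0.18 and -0.15 median-centred at 6 h and 24 h, and none passed the test. Without DMSO replicate 1 the 24 h change as deposited was -0.87 and passed it (limma adjusted p = 0.0168), again where 56.5% of all genes were called.

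SREBF1 was the lowest member in each DMSO group. It stood in PATU-8902 at 6.03, 4.42 and 4.35 FPKM in DMSO, at 3.55, 5.54 and 3.88 FPKM after 6 h and at 4.391, 4.399 and 6.12 FPKM after 24 h. In PATU-8988T it stood at 1.36, 4.43 and 3.15 FPKM in DMSO, at 1.83, 1.95 and 3.19 FPKM after 6 h and at 1.66, 1.86 and 2.27 FPKM after 24 h. The groups overlapped in both lines as deposited. At the common median the 6 h libraries of PATU-8902 (3.27 to 3.51 FPKM) lay below those in DMSO (3.57 to 4.12). None of the 4 comparisons with DMSO passed the test, and the median-centred 95% interval at 24 h was -0.25 to 0.14 in PATU-8902 and -0.21 to 0.18 in PATU-8988T. As deposited, the 24 h change in PATU-8988T was -0.37, and it was -0.70 without DMSO replicate 1, which passed the test (limma adjusted p = 0.0160) where 56.5% of all genes were called, and -0.10 without replicate 2. Median-centred, the 6 h change there was -0.26 without DMSO replicate 1 and passed it (limma adjusted p = 0.0268), beside 42.6% of all genes. The table has 1 row for SREBF1, so the transcripts of SREBP-1a and SREBP-1c are not separated.

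Neither site protease was called in a comparison with DMSO. MBTPS1, the site-1 protease that makes the first cut, was the highest member in each DMSO group. It stood in PATU-8902 at 78.6, 62.0 and 64.5 FPKM in DMSO, at 51.7, 88.6 and 60.5 FPKM after 6 h and at 60.6, 63.3 and 89.1 FPKM after 24 h. At the common median these 9 libraries lay between 51.0 and 57.6 FPKM. Its median-centred 95% interval was -0.19 to 0.16 at 6 h and -0.20 to 0.15 at 24 h, so a change of the size seen for SREBF2 at 24 h lay outside it.

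In PATU-8988T, MBTPS1 stood at 36.2, 86.1 and 73.9 FPKM in DMSO, at 43.4, 53.2 and 71.7 FPKM after 6 h and at 38.0, 41.4 and 48.1 FPKM after 24 h. DMSO replicate 1 was low beside the other two, and the groups overlapped. The change was -0.16 ± 0.30 at 6 h and -0.53 ± 0.30 at 24 h as deposited, and -0.14 ± 0.08 and -0.18 ± 0.08 median-centred. Without DMSO replicate 1 the 24 h value as deposited was -0.90 and passed the test, again where 56.5% of all genes were called.

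MBTPS2, the intramembrane metalloprotease that makes the second cut, stood in PATU-8902 at 32.0, 27.6 and 28.3 FPKM in DMSO, at 24.1, 35.4 and 25.8 FPKM after 6 h and at 29.01, 26.7 and 40.3 FPKM after 24 h. The groups overlapped, and the median-centred 95% interval was -0.18 to 0.15 at 6 h and -0.12 to 0.21 at 24 h. In PATU-8988T it stood at 8.98, 14.2 and 10.8 FPKM in DMSO, at 11.1, 13.2 and 17.4 FPKM after 6 h and at 9.45, 9.84 and 11.5 FPKM after 24 h. The groups overlapped as deposited. Median-centred, the change of 0.29 ± 0.08 at 6 h did not pass (limma adjusted p = 0.0838), and it was 0.40 without DMSO replicate 1 (limma adjusted p = 2.82e-04).

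That library bears on each PATU-8988T value. Without it, median-centred, all 7 members were called at 6 h and 6 of 7 at 24 h, beside 42.6% and 40.7% of all genes, so the members' counts there stand with a large share of the table. INSIG1, INSIG2 and MBTPS2 were then higher and SCAP, SREBF1, SREBF2 and MBTPS1 lower at 6 h. At the common median, DMSO replicate 1 lay at 14.4 FPKM for SCAP, 20.6 for SREBF2 and 59.7 for MBTPS1, whereas replicates 2 and 3 lay at 21.3 each for SCAP, at 25.7 and 27.4 for SREBF2 and at 76.4 and 76.3 for MBTPS1. Of the 3 DMSO libraries, replicate 1 was the one nearest to the treated libraries for these genes. Which of the DMSO libraries shows the untreated state of the line cannot be told apart from these data.

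**Figure D3:**
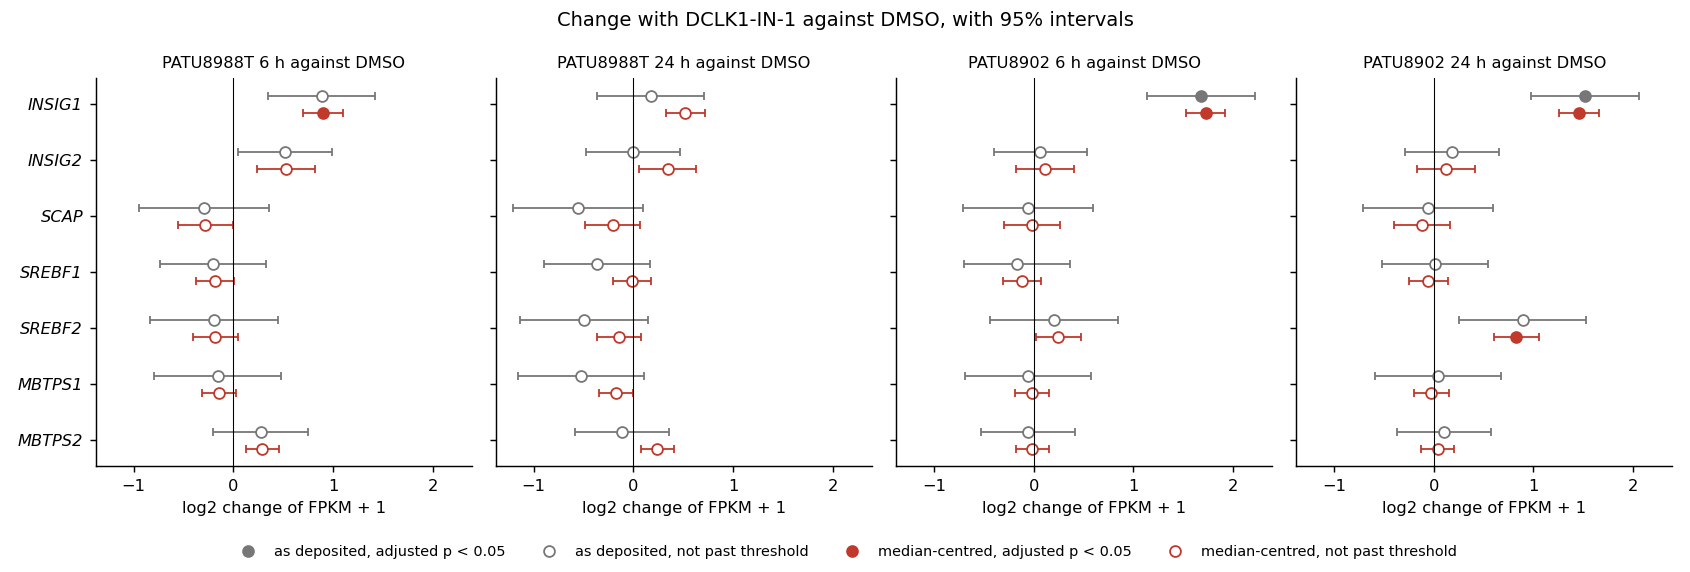
Log2 change of FPKM + 1 against DMSO (horizontal axis) for the 7 genes (vertical axis) in each line and time, as deposited in grey and median-centred in red, with unadjusted 95% intervals. Filled points passed an adjusted p of 0.05: INSIG1 at both times in PATU-8902 on both scales, INSIG1 at 6 h in PATU-8988T and SREBF2 at 24 h in PATU-8902 on the median-centred scale.

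The effect of the inhibitor was compared between the lines by an interaction term. Median-centred, the 24 h change was larger in PATU-8902 than in PATU-8988T by 0.94 ± 0.13 for INSIG1 (limma adjusted p = 0.00203) and by 0.97 ± 0.15 for SREBF2 (limma adjusted p = 0.00525). These were 2 of 7 members, against 0.227% of all genes called, and both were called in 12 of 12 leave-one-out fits. As deposited the differences were 1.35 and 1.38 and did not pass (limma adjusted p = 0.547 for each), with no member and 0.00871% of all genes called. At 6 h the INSIG1 difference was 0.80 as deposited and 0.83 ± 0.13 median-centred, which did not pass (limma adjusted p = 0.0695). No member and 0% of all genes were called at 6 h, where 99 genes as deposited and 1385 median-centred had an unadjusted p below 0.05. Without PATU-8988T DMSO replicate 1, median-centred, 6 of 7 members were called for the 6 h difference, beside 20% of all genes, and 3 of 7 for the 24 h difference, beside 5.6%. With all libraries, the other 5 members had median-centred 24 h differences from -0.22 (INSIG2) to 0.15 (MBTPS1), none past the threshold.

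Ratios of 2 members within a library do not depend on the level of that library, apart from the added 1 FPKM. The ratios below are of FPKM + 1, where the added 1 weighs most on low genes such as SREBF1. Such ratios were compared for 3 pairs in 4 comparisons by exact permutation of the libraries (2-sided), with adjustment over the 12 tests. The smallest p that groups of 3 allow is 0.1. In PATU-8902 the ratio of INSIG1 to INSIG2 was 0.393, 0.364 and 0.377 in DMSO, 1.05, 1.23 and 1.19 after 6 h and 0.937, 0.907 and 1.01 after 24 h. The anchors thus went from a majority of INSIG2 transcript to about equal levels. The log2 ratio was higher by 1.61 at 6 h and by 1.33 at 24 h (exact p = 0.1 for each, adjusted p = 0.15), with each treated library above each DMSO library.

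In PATU-8988T, INSIG1 exceeded INSIG2 in each library, with ratios of 1.16, 1.75 and 1.49 in DMSO. The ratios were 1.997, 1.67 and 1.95 after 6 h and 1.98, 1.48 and 1.496 after 24 h, overlapping with DMSO. The log2 differences were 0.37 at 6 h (exact p = 0.2, adjusted p = 0.27) and 0.18 at 24 h (exact p = 0.5, adjusted p = 0.55).

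The ratio of SREBF2 to SREBF1 in PATU-8902 was 3.19, 2.76 and 3.14 in DMSO, 3.47, 4.32 and 3.94 after 6 h and 5.64, 5.13 and 5.96 after 24 h. The 3 groups did not overlap. The log2 difference from DMSO was 0.37 at 6 h and 0.88 at 24 h (exact p = 0.1 for each). In PATU-8988T the ratio lay between 5.17 and 6.62 in all 9 libraries, with log2 differences of 0.00 at 6 h (exact p = 1) and -0.13 at 24 h (exact p = 0.3). On FPKM + 1, the 24 h libraries of PATU-8902 were within or near the range of the other line. SREBF1 was at most 4.43 FPKM in PATU-8988T, so the added 1 FPKM lowers the ratio there. That range and its closeness to PATU-8902 depend on the added amount. With 0.1 FPKM added, the log2 differences at 6 h and 24 h were 0.41 and 0.92 in PATU-8902 and 0.04 and -0.05 in PATU-8988T.

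The ratio of INSIG1 to SCAP was higher in each treated library than in each DMSO library of both lines at both times (exact p = 0.1 for each of 4, adjusted p = 0.15). It went in PATU-8902 from 1.24, 1.36 and 1.35 in DMSO to 4.68, 4.06 and 4.51 after 6 h and 3.14, 4.24 and 4.51 after 24 h. In PATU-8988T it went from 0.669, 0.453 and 0.371 to 1.13, 1.10 and 1.05 after 6 h and 0.853, 0.680 and 0.882 after 24 h. The log2 differences were 1.74 and 1.57 in PATU-8902 and 1.18 and 0.73 in PATU-8988T. The DMSO replicate of PATU-8988T with the highest ratio was replicate 1.

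**Figure D4:**
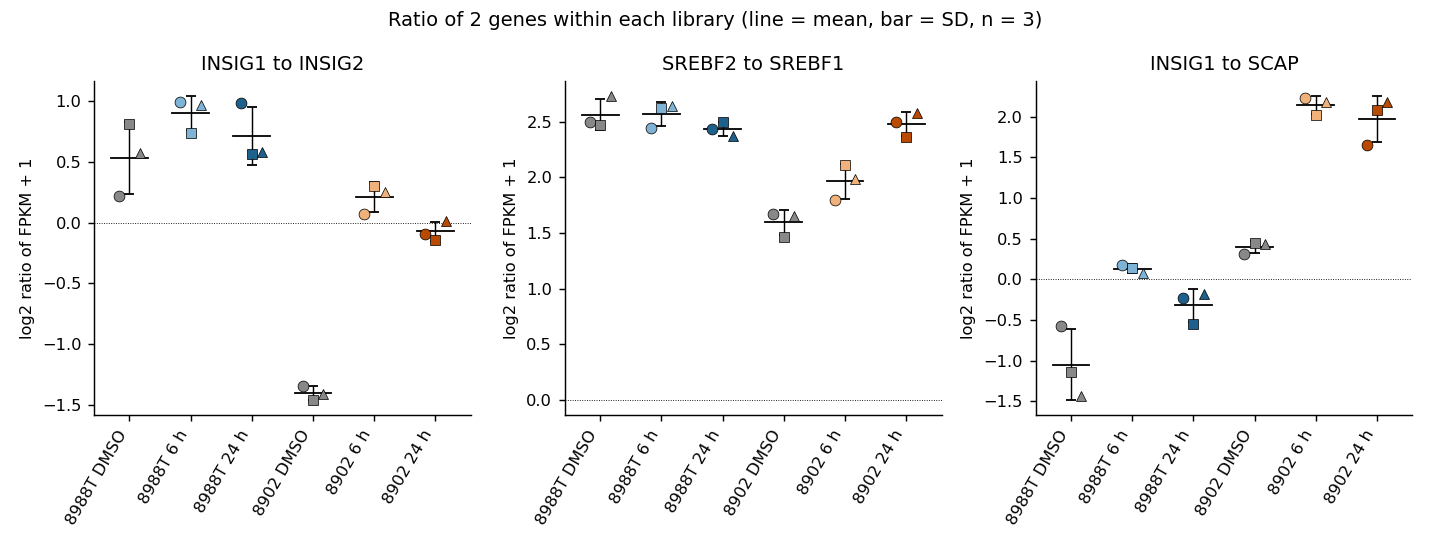
Log2 ratio of FPKM + 1 (vertical axis) of INSIG1 to INSIG2, SREBF2 to SREBF1 and INSIG1 to SCAP in each library, by line and group (horizontal axis). Points are libraries, lines are means and bars are SD (n = 3). In PATU-8902 each treated library is above each DMSO library in all 3 panels.

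The lines also differed in DMSO. INSIG2 and MBTPS2 were higher in PATU-8902 and SCAP lower on both scales, while the calls for SREBF1, SREBF2 and MBTPS1 depended on the scale. As deposited 4 of 7 members were called, beside 54.2% of all genes, and median-centred 5 of 7, beside 72.2%, so a call in this comparison was common in the table. As deposited 3 members were called higher in PATU-8902, where 41.8% of all genes were, and 1 lower, where 12.4% were. Median-centred 2 were called higher, where 34.4% of all genes were, and 3 lower, where 37.8% were.

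INSIG2 differed most, at 4.77 ± 0.624 FPKM (SD, n = 3) in PATU-8988T and 30.6 ± 0.777 in PATU-8902. The difference was 2.46 ± 0.22 (limma adjusted p = 2.16e-08) as deposited and 1.96 ± 0.14 (limma adjusted p = 1.74e-09) median-centred, with no overlap between the libraries. MBTPS2 was higher by 1.32 as deposited and 0.82 median-centred. SCAP differed by -0.93 as deposited (limma adjusted p = 0.0169), with overlapping libraries, and by -1.43 ± 0.13 median-centred, with none. Its as-deposited call was kept in 3 of 6 leave-one-out fits, with values from -1.36 to -0.66.

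SREBF1 was called higher as deposited (0.65, limma adjusted p = 0.0382) and not median-centred (0.15, limma adjusted p = 0.159), and was kept in 3 of 6 as-deposited leave-one-out fits, at 0.31 without PATU-8988T DMSO replicate 1. SREBF2 was at -0.32 (limma adjusted p = 0.392) as deposited and was lower by -0.82 ± 0.11 (limma adjusted p = 3.09e-06) median-centred. MBTPS1 changed sign with the scale, from 0.15 (limma adjusted p = 0.710) to -0.36 ± 0.08 (limma adjusted p = 9.19e-04). INSIG1 did not pass on either scale, at 0.52 (limma adjusted p = 0.0969) and 0.02 (limma adjusted p = 0.870), and at the common median it stood at 8.55 ± 1.11 FPKM (SD, n = 3) in PATU-8988T and 8.63 ± 0.514 in PATU-8902. The median-centred 95% interval of the INSIG1 difference was -0.18 to 0.22.

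FPKM is per transcript length, so levels can be set between genes. In PATU-8902 DMSO the order was MBTPS1 (68.4 FPKM), INSIG2 (30.6), MBTPS2 (29.3), SREBF2 (17.04), INSIG1 (10.9), SCAP (8.08) and SREBF1 (4.93), where only INSIG2 and MBTPS2 overlapped as neighbours. In PATU-8988T DMSO it was MBTPS1 (65.4 FPKM), SREBF2 (22.6), SCAP (17.7), MBTPS2 (11.3), INSIG1 (7.57), INSIG2 (4.77) and SREBF1 (2.98), and all neighbours after MBTPS1 overlapped across libraries. Within each of these libraries each gene stood above the next in this order, except in replicate 1. There SCAP (8.42 FPKM) was below MBTPS2 (8.98). Among the genes tested, MBTPS1 was at the 89.2 percentile of mean level in PATU-8988T DMSO and SREBF1 at the 22.9 percentile. INSIG2 was at the 32.7 percentile in PATU-8988T DMSO and at the 70.4 percentile in PATU-8902 DMSO.

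The genes whose pattern was most like that of each member were taken by Pearson's r across the 18 libraries, on median-centred log2 values after the mean of each line was subtracted. This is a description over libraries that share their groups, and some genes so chosen are not reported here. The leading genes for INSIG1 included HMGCS1 (r = 0.931), LPIN1 (0.909) and MSMO1 (0.888). Those for SREBF2 included DHCR7 (r = 0.965), ACAT2 (0.952), LSS (0.950) and FDFT1 (0.943). HMGCS1 makes HMG-CoA at the head of the mevalonate pathway, MSMO1 and DHCR7 work late in cholesterol synthesis, and LSS and FDFT1 form lanosterol and squalene.

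For INSIG2 the leading genes were UFL1 (r = 0.943), IBTK, PPIP5K2, THUMPD1 and ATP13A3 (0.930), and for MBTPS2 they were PPP2R5A (r = 0.956), TMEM70, CLDN12, ATP6V1C1 and ZFAND5 (0.946). For SCAP they were ACTR1B (r = 0.945), SHISA5, RIC8A, PFKL and MTMR14, for SREBF1 SSH3 (r = 0.863), RRS1, ACD, SLC19A1 and MLST8, and for MBTPS1 CALR (r = 0.977), RPL27, UFC1, PPME1 and COTL1. None of these 25 genes is a sterol synthesis enzyme. Among the members, INSIG2 and MBTPS2 varied together (r = 0.87). Each ran against SCAP (-0.84 and -0.72) and MBTPS1 (-0.76 and -0.81), and SCAP varied with MBTPS1 (0.74). At the common median, PATU-8988T DMSO replicates 2 and 3 lay below the other libraries of that line for INSIG2 and MBTPS2. They lay above them for SCAP and MBTPS1. For INSIG2 they stood at 4.76 and 4.57 FPKM, against 6.41 to 8.96 in the others. For MBTPS1 they stood at 76.4 and 76.3 FPKM, against 59.7 to 65.5. How far these r values, and the leading genes of these members, rest on those libraries was not tested. INSIG1 and SREBF2 had r = 0.40 with each other.

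The genes around the pathway were followed as 7 lists. Of 14 tested factors that ubiquitinate or extract INSIG and sterol-regulated proteins at the endoplasmic reticulum, 0 were called in any of the 4 comparisons with DMSO, and the median at 24 h in PATU-8902 was -0.12 median-centred, against -0.02 over all genes. At an unadjusted p below 0.05, limma gave up to 1 as deposited and, median-centred, up to 7 per comparison. The 7 were in PATU-8988T at 24 h, where 1923 of all 11477 genes had such a p. The erlin gene ERLIN2, for example, was at -0.22 ± 0.06 at 24 h in PATU-8902 (limma adjusted p = 0.239). Of 12 genes of the COPII coat and Golgi escort, 0 were called in the 4 comparisons, with a median-centred median of 0.07 at 24 h in PATU-8902. At most 2 had an unadjusted p below 0.05 in limma on either scale. Counts of 2 were median-centred, in PATU-8988T at 6 h and PATU-8902 at 24 h, where 3390 and 886 of all genes had such a p. SEC24D, a COPII cargo adaptor, was at 0.23 ± 0.08 at 24 h in PATU-8902 (limma adjusted p = 0.517). Of the 8 other substrates of the site proteases, 6 were tested (CREB3L1 and CREB3L3 were below the filter) and 0 were called in the 4 comparisons. At most 3 had an unadjusted p below 0.05 in limma (PATU-8988T at 6 h median-centred, where 3390 of all genes did). ATF6, the stress sensor cut by both proteases, was at 0.06 ± 0.07 at 24 h in PATU-8902.

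Of 11 SREBP cofactors and turnover factors, LPIN1 alone was called. LPIN1 encodes a phosphatidate phosphatase that also acts on nuclear SREBP. It was higher in PATU-8902 median-centred by 0.50 ± 0.07 at 6 h (limma adjusted p = 0.00433) and 0.49 ± 0.07 at 24 h (limma adjusted p = 0.00153), with 0 of 11 called as deposited. Of all genes, 0.113% were called at 6 h and 0.444% at 24 h in PATU-8902 median-centred. EP300 and CREBBP, acetyltransferases that bind SREBPs, were each at 0.16 at 24 h median-centred and did not pass.

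Among genes that SREBP-2 is known to drive, 16 were tested. In PATU-8902 at 24 h, 7 were called higher as deposited and 15 median-centred, with medians of 1.17 and 1.10 against 0.04 and -0.02 over all genes. Of all genes, 0.113% and 0.444% were called there. At 6 h in that line 0 were called as deposited and 7 median-centred (median 0.57), beside 0.00871% and 0.113% of all genes. In PATU-8988T 4 were called at 6 h median-centred (median 0.19), beside 0.0784% of all genes, and 0 at 24 h. At 24 h there, 0 as deposited and 7 median-centred had an unadjusted p below 0.05 in limma, beside 687 and 1923 of all genes. HMGCS1 went from a mean of 29.01 to 101 FPKM at 24 h in PATU-8902 (1.69 ± 0.07 median-centred, limma adjusted p = 4.39e-10), SQLE, which oxidises squalene, from 67.7 to 204 FPKM, and CYP51A1, the lanosterol demethylase, from 41.2 to 108 FPKM.

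Of 12 genes that SREBP-1 is known to drive, 11 were tested (PNPLA3 was below the filter). At 24 h in PATU-8902, 0 were called as deposited (beside 0.113% of all genes) and 3 were called higher median-centred (beside 0.444%). These were SCD, a desaturase (0.92 ± 0.08), ELOVL6, an elongase (0.94 ± 0.06), and ACSS2, which activates acetate (0.95 ± 0.08). FASN, the fatty acid synthase, was at 0.55 ± 0.13 and did not pass (limma adjusted p = 0.138). The median was 0.27, and 0 were called in the other 3 comparisons on either scale. SREBF1 itself was at -0.05 there.

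Of 8 LXR receptors and targets, which respond to oxysterols, 6 were tested (ABCA1 and ABCG1 were below the filter). MYLIP, a ubiquitin ligase induced by LXR, was called lower median-centred at 6 h in PATU-8902, by -0.78 ± 0.13 (limma adjusted p = 0.0206), and was at -0.38 ± 0.13 at 24 h, which did not pass. It was 1 of 6 called at 6 h there, beside 0.113% of all genes. Over the 7 lists, the members called in PATU-8902 lay mostly among the genes that SREBPs drive, as the plot of the lists shows by gene. These lists were chosen with earlier results of these data known and were not tested against each other.

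**Figure D5:**
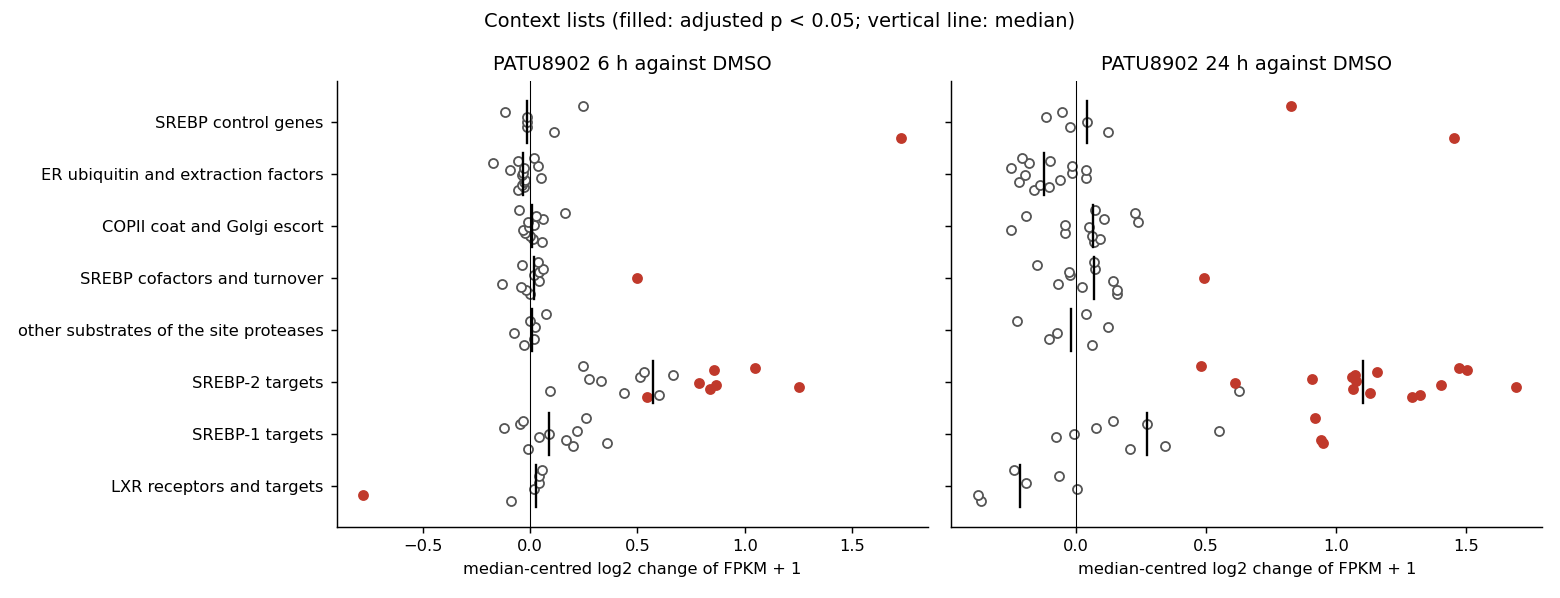
Median-centred log2 change of FPKM + 1 against DMSO in PATU-8902 (horizontal axis) at 6 h and 24 h, with a point per tested gene in the 7 SREBP control genes and 7 lists (vertical axis). Filled points passed an adjusted p of 0.05 and vertical lines are medians. Of the SREBP-2 targets 7 of 16 are filled at 6 h and 15 of 16 at 24 h, against 1 and 2 of the 7 control genes.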

How the data were processed

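Polyadenylated RNA of 18 libraries in 6 groups of 3 was measured. RNA amounts were set by cell number and ERCC controls spiked in before a poly(A) library kit and single-end reads, per the labels' protocols. The authors deposited FPKM values per gene symbol, 26249 genes and 92 spike-ins. Per the submitters' processing notes, HISAT, Cufflinks and Cuffnorm were used with hg19. Their versions, and whether reads were counted by strand, are not given in the sources used here. SREBF1 (overlapping RAI1 and MIR33B), SREBF2 (SREBF2-AS1, MIR33A) and MBTPS2 (YY2) may therefore hold reads of those genes. FPKM carry no counts, so depth is unknown and intervals cover the spread between libraries.

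On log2(FPKM + 1), which understates changes of low genes, limma 3.58.1 in R 4.3.3, with its trend option, fitted 6 group means over 18 libraries (12 residual degrees of freedom). It covered 11477 genes whose mean reached 1 FPKM. P-values are 2-sided with Benjamini-Hochberg adjustment over these genes in each of 9 contrasts, and a gene was called at an adjusted p below 0.05. The model was tested on simulated data with independent noise of the median-centred spread. These data held no shift of whole libraries, so the test does not cover the values as deposited. Values as deposited are the main result, and median-centring, cyclic loess, spike-in rescaling, other pseudocount and filters, a fit on the compared groups, a replicate block and leaving out each library are alternatives. Ratios used a 2-sided exact permutation test.

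Named genes are the 7 members, up to 4 per list with the smallest median-centred p at 24 h in PATU-8902, and the 5 most like each member. Some genes that met these rules are not reported here, and counts include them. The members and lists were chosen with earlier results of these data known. Promoter windows are from RefSeq (GRCh38.p14), and motifs were searched on both strands.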

Additional observations from a re-analysis of the deposited data

Results flagged for a closer look

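The 24 h response to the inhibitor differed between PATU-8902 and PATU-8988T for 2 of the 7 genes by an interaction term on the median-centred scale. Of all genes, 0.227% were called there, and 0.00871% as deposited. The INSIG1 change was larger in PATU-8902 by 0.94 (log2 of FPKM + 1, SE 0.13, limma adjusted p = 0.00203), where each of the 3 treated libraries was above each of the 3 DMSO libraries in both lines. The SREBF2 change was larger by 0.97 (SE 0.15, limma adjusted p = 0.00525), with each treated library above each DMSO library in PATU-8902 and overlap in PATU-8988T. As deposited the differences were 1.35 and 1.38 and neither passed the test (limma adjusted p = 0.547 for each). The DMSO group of PATU-8988T held the library that stood apart, replicate 1, and without it the median-centred differences were 0.88 for INSIG1 and 1.09 for SREBF2.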

How the results depend on the processing

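The number of members called moved with the scaling. Median-centring and cyclic loess each gave 1 call at 6 h in PATU-8988T (0 as deposited), 2 at 24 h in PATU-8902 (1 as deposited), 1 between 24 h and 6 h in PATU-8902 and 2 for the 24 h line difference (0 as deposited for both). A fit on the compared groups alone gave 0 calls at 6 h and 0 at 24 h in PATU-8902 and 2 for the lines in DMSO (4 in the main fit), with fewer residual degrees of freedom. Rescaling by the spike-ins, a filter of 5 FPKM, no filter and a pseudocount of 0.1 moved no count of members by over 1.5 times. The replicate block gave 0 calls at 6 h in PATU-8902 (INSIG1 1.68, limma adjusted p = 0.112) and changed no other count of members by over 1.5 times as deposited. With the block and median-centring the counts were 1 at 6 h in PATU-8988T, 2 at 24 h in PATU-8902, 2 for the 24 h line difference and 0 between 24 h and 6 h in PATU-8902, where SREBF2 (0.58) had a limma adjusted p of 0.104 in place of 0.0277. Deviations of libraries with the same replicate number had r across genes from -0.22 to 0.14, over 0.1 in 3 of 18 pairs. A shift of a whole library does not enter this r, so it cannot show whether the numbers pair the libraries in level. Replicate 1 had the lowest median in each PATU-8988T group (6.12, 7.08 and 6.30 FPKM), while in PATU-8902 the lowest replicate differed between the groups. Pairing was therefore not settled.

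Values that changed sign with an interval off 0 on either scale were INSIG2 at 24 h in PATU-8988T (0.34 median-centred, 0.36 with cyclic loess, 0.34 with the replicate block and centring), MBTPS2 in the same comparison (0.24, 0.27 and 0.24) and MBTPS1 between the lines in DMSO (-0.36, -0.39 and -0.36). Median-centring changed the sign of 13 of 63 values in all, 3 of them so, and cyclic loess of 12, 3 of them so. The others had intervals over 0 on both scales and are not counted as changed. The cause of these changes was not tested.

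Leaving out 1 library at a time gave 0 to 1 calls as deposited at 24 h in PATU-8902 and 0 to 0 at 6 h in PATU-8902. As deposited it gave 0 to 4 at 24 h in PATU-8988T (the 4 beside 56.5% of all genes). Between the lines in DMSO it gave 2 to 4, beside 46.3% to 58.9% of all genes. Median-centred, it gave 1 to 7 calls at 6 h in PATU-8988T (the 7 beside 42.6% of all genes) and 0 to 6 at 24 h (the 6 beside 40.7%). In PATU-8902 it gave 2 to 2 at 24 h and 0 to 1 between 24 h and 6 h, median-centred. The median-centred line differences had 0 to 6 at 6 h (the 6 beside 20% of all genes) and 2 to 3 at 24 h (the 3 beside 5.6%). The counts of 3 or more in PATU-8988T and in the line differences came without PATU-8988T DMSO replicate 1. Median-centred values at 24 h in PATU-8988T, opposite in sign to those as deposited, ran for INSIG2 from 0.22 to 0.56 without a DMSO library and from 0.25 to 0.43 without a 24 h library, and for MBTPS2 from 0.14 to 0.35 and from 0.23 to 0.25. Of these, the intervals lay off 0 for INSIG2 at 0.56 and from 0.35 to 0.43, and for MBTPS2 from 0.22 upwards. MBTPS1 between the lines ran from -0.47 to -0.30 without a PATU-8988T library and from -0.38 to -0.32 without a PATU-8902 library. Without PATU-8988T DMSO replicate 1 the 24 h line difference was -0.43 for INSIG2 and -0.31 for MBTPS2, and without replicate 1 at 6 h SREBF1 between 24 h and 6 h in PATU-8988T was 0.22. The log2 ratio of SREBF2 to SREBF1 at 6 h in PATU-8988T ran from -0.043 to 0.087 without a DMSO library and reached -0.032 and -0.021 without a 6 h library. With 3 libraries a group and no counts, changes smaller than the intervals given were not detectable.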
